A study of Ovis aries with 2 samples.

Results

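The Y-linked gene ZFY of the sheep was described by 826 of the 372890 CpG sites measured on the Y-chromosome. The sites were chosen by position alone. They lie in the annotated gene, LOC132659061, or within 10 kb on either side of it. The gene runs on the minus strand of chromosome Y of the ARS-UI_Ramb_v3.0 build, from its start at 8490522 down to its end at 8409837, a length of 80686 bp. Of the 826 sites, 706 lay in the gene itself, and the annotation lists 11 transcripts and 11 proteins for it. Distances below are counted from the start into the gene, with negative values upstream. No exon map was used here, so sites are not divided into exons, introns and UTRs.

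The DNA came from lung tissue of 1 Churro x Friesian F1 sheep, a fetus of 100 days of gestation, whose Y-chromosome is that of the Churro sire. It was read once with PacBio HiFi reads and once with Oxford Nanopore (ONT) reads. There was no second animal and no untreated or control group, so the 2 platforms were the only repeat measurement and no significance test could be made. RNA was not measured in these files, so the labelled tissue could not be checked against marker genes, and each methylation value is an average over the cell types of a fetal lung.

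ZFY encodes a zinc-finger transcription factor and has a closely related partner on the X-chromosome, ZFX. It is best known for its part in spermatogenesis, and in many mammals it is transcribed outside the testis as well. The starts of widely used mammalian genes commonly lie in CpG islands, stretches rich in CpG that stay free of methylation, while the bodies of transcribed genes are mostly methylated. In sheep ZFX lies on chromosome X between 22500512 and 22537460. None of its CpG sites were measured in these data.

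For PacBio, each CpG site carries 1 modelled methylation percentage and the number of reads with a call. For ONT, each read at a site was called methylated above a probability of 80% and unmethylated below 20%, and the percentage is the methylated share of these calls with both strands added. Depth means the reads with a call on PacBio and the methylated plus unmethylated calls on ONT. ONT reads over a site also include reads between the thresholds and all remaining reads. The share of reads with no CpG call is that remainder, and what it is made of was not counted. A region is given by the mean of its sites with the SD between them. Neighbouring sites share reads and are not independent.

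The start of ZFY was almost free of methylation on both platforms. Over the 61 CpG sites within 500 bp of the start, methylation was 4.22% ± 3.78 (SD between 61 sites) on PacBio and 2.12% ± 2.61 on ONT. With the calls of all sites pooled, the window was at 3.30% on PacBio, with a 95% Wilson interval of 2.81 to 3.86. The pooled ONT value was 1.98% and its interval 1.68 to 2.34. These intervals cover counting error only, and the PacBio one rests on read counts that the tool estimated from its model. With the modelled percentages weighted by depth instead, PacBio had 3.99%, above that interval. By site, PacBio ranged from 2.30% to 29.6% with a median of 3.40%, and ONT from 0 to 14.6% with a median of 1.65%. The 50 sites in the first 500 bp of the gene were the most uniform, at 3.65% ± 0.746 and 1.80% ± 2.14. The 11 sites in the 500 bp upstream had 6.81% ± 8.59 and 3.60% ± 3.94, where the higher mean and spread came from the outermost sites.

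The low region was also the part of the gene richest in CpG. Counted over the span between the outermost sites, the first 500 bp of the gene held 103.5 CpG sites per kb and the 500 bp upstream 22.3, against 7.35 in the gene body and 11.6 over the whole male-specific region, the part of the Y-chromosome that does not pair with the X-chromosome. A low stretch was followed outward from the start up to the first run of 5 neighbouring sites whose mean reached 20% on either platform. The rule can leave off low sites at either end, since the run that reaches the limit may begin with them. The low stretch ran from 8488713 to 8490856, from 334 bp upstream to 1809 bp inside the gene, and took in 137 sites over 2143 bp. Of these sites, 129 lay inside the gene and 8 upstream. The stretch is therefore placed mainly downstream of the annotated start rather than centred on it. Methylation within it averaged 3.44% ± 0.712 on PacBio, with 7.10% as the highest site, and 1.92% ± 2.51 on ONT, with 17.6% as the highest.

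The high ONT values inside the stretch were single sites that one strand carried. At 8489520, 1002 bp into the gene, ONT gave 17.6% and PacBio 3.10%. The plus strand there had 0 methylated calls of 50, and the minus strand had 42.9% of 35 calls. At 8489982, 540 bp into the gene, ONT gave 17.3% and PacBio 3.30%, with 7.32% on the plus strand and 29.4% on the minus strand. The next highest ONT sites, 184 and 363 bp into the gene, had 9.18% and 10.3%, again higher on the minus strand. PacBio was at 2.90% to 3.30% at all 4.

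Methylation went up and down at both edges of the low stretch. Upstream, the site at -365 bp still had 2.70% on PacBio and 3.25% on ONT. The next site outward, at -444 bp, had 29.6% and 14.6%. Beyond it methylation did not rise steadily. It was 16.7% and 5.56% at -499 bp, 41.9% and 33.6% at -793 bp, 91.4% and 65.7% at -994 bp, and then again 12.6% and 11.9% at -1287 bp. Over the 10 sites between 500 and 2000 bp upstream, PacBio averaged 52.3% ± 26.1 and ONT 30.7% ± 20.6, so this was a zone of intermediate values with a wide spread between sites.

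Inside the gene the low level held to 1809 bp and broke off before 2486 bp. The site at 1916 bp had 6.60% on PacBio and 0.877% on ONT. The site at 2204 bp had 43.9% and 34.1%, and the one at 2246 bp had 10.1% and 8.74%. The next sites had 50.6% and 22.9% at 2364 bp, 28.2% and 11.1% at 2412 bp, and 79.4% and 57.3% at 2486 bp. At 2859 bp the values were 93.4% and 77.5%, and at 3706 bp they were 53.8% and 49.4%. The site at 2246 bp, position 8488276, was the only CpG of the gene body under 20% on both platforms.

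**Figure D1:**
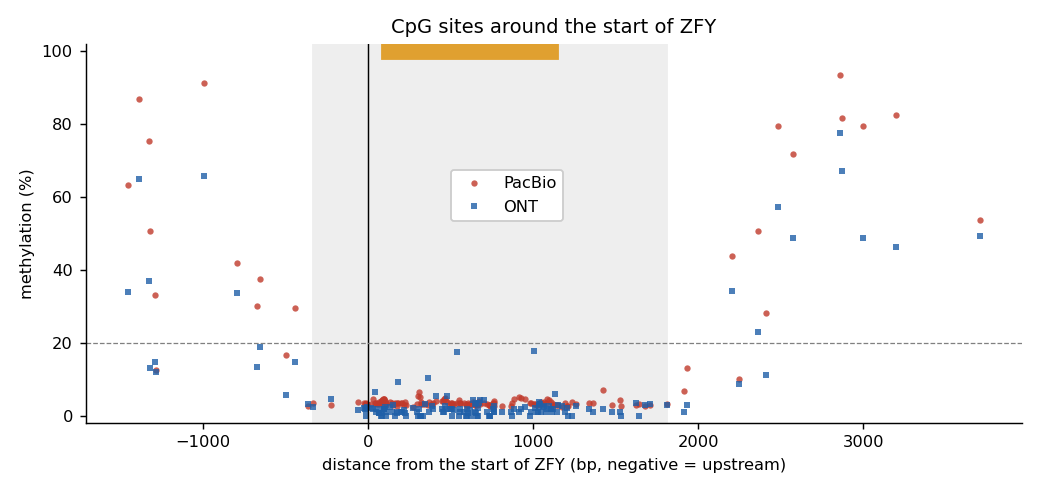
Methylation in percent (y axis) of each CpG site by its distance in bp from the start of ZFY (x axis), with PacBio as circles and ONT as squares. The grey band is the low stretch from -334 to 1809 bp, the dashed line is 20%, and the orange bar at the top marks the sites from 84 to 1152 bp where PacBio depth was doubled. Both platforms lie near 0 across the band and scatter widely on both sides of it.

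The gene body was highly methylated. From 2000 bp past the start to the annotated end there were 575 CpG sites, with 88.5% ± 13 (SD between 575 sites) on PacBio and 75.9% ± 14.2 on ONT. Pooled over calls, the body had 88.7% (95% Wilson interval 88.3 to 89.1) and 76.0% (75.6 to 76.4). With the modelled percentages weighted by depth instead, PacBio had 87.7%, under that interval. The start window was 84.3 points under the body on PacBio, at 4.22% against 88.5%, and 73.8 points under it on ONT, at 2.12% against 75.9%. Both differences were far larger than the gap of 12.6 points between the platforms in the body and 2.10 points at the start.

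On PacBio 489 of the 575 body sites lay over 80%, 85 lay between 20% and 80%, and 1 lay under 20%. On ONT the counts were 284, 286 and 5. Under 20% on both platforms was 1 of the 575 body sites (0.174%), against 8.44% of the 219118 CpG sites of the male-specific region. In windows of 1 kb with 5 or more CpG sites, 3 of 74 windows in the gene with its flanks (4.05%) were under 20% on both platforms, against 0.906% of 16451 such windows in the male-specific region. The 3 were neighbours and lay around the start. The window from -1000 bp to the start had 18.4% and 11.4%, the first kb of the gene had 3.51% and 1.75%, and the second kb had 3.64% and 2.29%. No window deeper in the gene was low.

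Methylation along the body was level over most of its length and lower near the start. The 46 sites from 2000 to 12000 bp averaged 75.9% ± 22.0 on PacBio and 58.0% ± 20.9 on ONT, against 89.6% ± 11.3 and 77.5% ± 12.3 over the 529 sites from 12000 bp to the end. In 5-kb windows from 5000 to 80000 bp, the PacBio mean ranged from 78% to 94.8% and the ONT mean from 56.8% to 81.4% over 15 windows of 20 to 53 sites. Both minima were in the window from 5000 to 10000 bp, with 22 sites.

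Within the body, 4 short runs of sites stood lower than their surroundings on both platforms, chosen after their values were seen. The run from 8480951 to 8482894, 7628 to 9571 bp into the gene, had 66.4% on PacBio and 47.2% on ONT over 8 sites. The run from 8455623 to 8457080, 33442 to 34899 bp into the gene, had 64.8% and 46.8% over 9 sites. It held the site at 8456547 with 24.7% on PacBio and 8.18% on ONT, the lowest ONT value of the body. The run from 8461509 to 8462552 had 63.4% and 52.5% over 7 sites, and the run from 8484788 to 8485775 had 69.2% and 55.6% over 6 sites. None of the 4 was low throughout, since each held at least 1 site over 90% on PacBio. Their median PacBio depth was 33 to 39.5 reads, close to that of the sites around them.

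**Figure D2:**
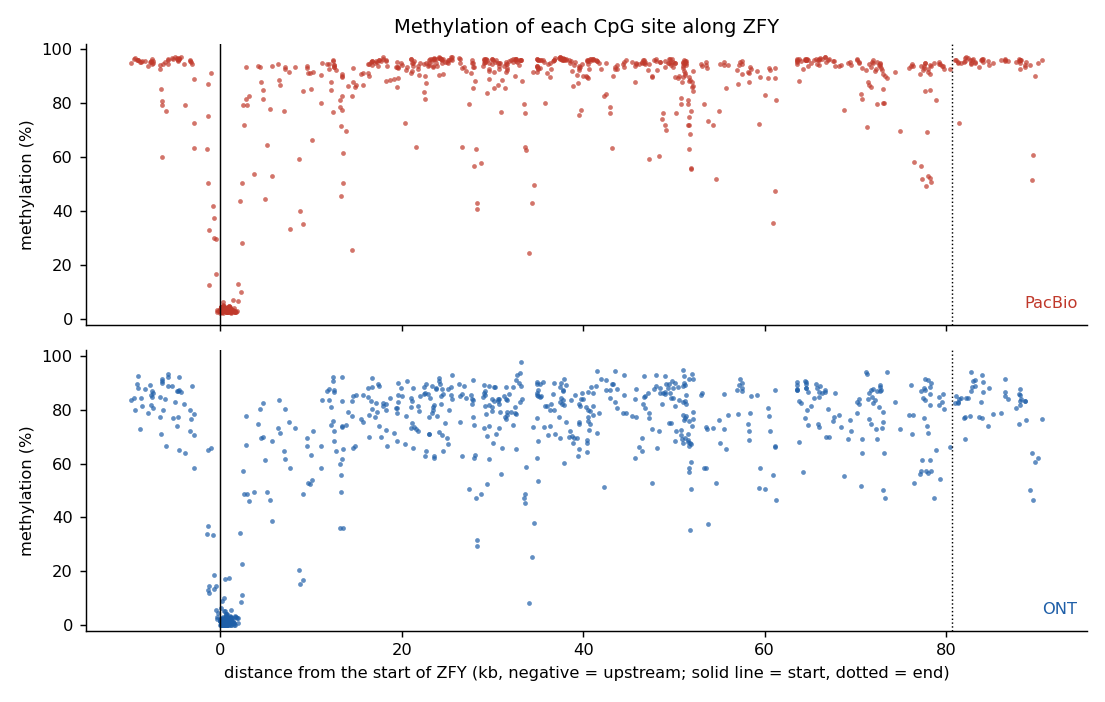
Methylation in percent (y axis) of each of the 826 CpG sites by distance in kb from the start of ZFY (x axis), PacBio above and ONT below, where the solid line is the start and the dotted line the annotated end. The start is the only place where a cluster of sites lies near 0, and the PacBio body forms a denser band near its median of 93.8% than the ONT body near 79.7%.

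The flanks were methylated like the body. The 50 sites from 2000 to 10000 bp upstream had 92.2% ± 8.47 on PacBio and 82.0% ± 8.10 on ONT, and no site under 20% on either. The 49 sites in the 10 kb past the end of the gene had 93.3% ± 8.52 and 80.6% ± 9.90, again with none under 20%. The low level at ZFY therefore ended on both sides within a few kb of the start. The next protein-coding gene upstream, EIF2S3, a translation initiation factor gene, ends 17634 bp away and outside the flank. The lncRNA LOC132659060 reaches into the downstream flank with 2 CpG sites, at 95.5% on PacBio and 69.2% on ONT. The RNU4-1 pseudogene, a relic of a spliceosomal RNA gene, lies inside ZFY from 8426950 to 8427032. Its 5 CpG sites were methylated on both platforms, at 94.6% to 96.4% on PacBio and 87.1% to 90.3% on ONT.

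Both platforms set the low start apart from the methylated rest, but they differed in level. Within the body their order of the sites matched only in part. Over the 826 sites PacBio was 10.7 points above ONT on average, at 74.0% against 63.3%. The gap differed by PacBio level, which is itself 1 side of the gap. It was 1.66 points (SD 2.83 between sites) for the 143 sites under 20% on PacBio. For the 21 sites from 20% to 50% it was 3.1 points (SD 19.9), and for the 81 sites from 50% to 80% 6.78 points (SD 16.5). The 581 sites of 80% and over had a gap of 13.7 points (SD 8.85). ONT was the higher platform at 77 of 826 sites (9.32%). Across the 826 sites Pearson's r between the platforms was 0.95 and Spearman's rho was 0.71. Within the 575 body sites r was 0.68 and rho 0.50. These are descriptions across neighbouring sites of 1 animal, which share reads, and carry no p-value.

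Typical depth at ZFY was close to that of the whole male-specific region. Over the annotated gene the median was 40 calls per site on PacBio and 94 on ONT. These were 1.03 and 1.06 times the medians of 39 and 89 in the male-specific region. Against the first 1800 kb of that region alone, where ZFY lies, the ratios were higher, at 1.33 and 1.13. In the gene with its flanks the lowest PacBio depth was 30 calls and the lowest ONT depth, at another site, was 51 calls, both well over the minimum of 5. Depth along the gene was not even, however. At 132 of the 826 sites (16.0%) PacBio depth was at least 1.75 times the median of 40, a limit of 70 reads, while 0.968% of the sites of the male-specific region exceeded 1.75 times their own median. All 132 lay in 3 blocks inside the gene, of 1069, 217 and 3341 bp. The first block held 103 of them in the CpG-rich start, so the share of sites is not a share of length. These blocks were found from the PacBio depth itself, so their PacBio depth is a description, and the ONT reads and the methylation are the separate measurements.

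The first block lay on the low stretch. It ran from 8489370 to 8490438, from 84 to 1152 bp into the gene, and held 103 sites with 82 to 89 PacBio reads. Its edges were sharp. Depth went from 43 reads to 89 within 6 bp at the end near the start of the gene, and from 82 to 41 within 21 bp at the other end. The 10 sites before and after it had medians of 43 and 41. ONT reads did not rise there, with a median of 130 inside the block against 132 before and 125 after it, so the PacBio ratio of 2.09 stood beside an ONT ratio of 1.01. Sites inside and outside the block were both low in methylation. Of the start window, the 41 sites inside the block had 3.67% ± 0.802 on PacBio and 1.82% ± 2.22 on ONT. The 20 sites outside it, with 43 or 44 PacBio reads, had 5.34% ± 6.46 and 2.75% ± 3.26, with medians of 3.45% and 1.69%. The low level at the start was thus measured at single depth as well as at doubled depth.

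The other two blocks lay in the 3' part of the gene, and there ONT reads rose too. The second held 4 sites from 8429350 to 8429566, 60956 to 61172 bp into the gene, with 111 or 112 PacBio reads between neighbours of 51 and 53. Its ONT reads were 166 to 169, against medians of 130.5 before and 118 after it. The nearest sites outside, at 8429964 and 8429221, had 156 and 161 ONT reads with 51 and 53 on PacBio. The third held 27 sites from 8412238 to 8415578, 74944 to 78284 bp into the gene and 2401 bp short of its end. PacBio depth was 105 to 112 at 25 of them and 54 and 63 at the other 2. ONT reads were 189 to 217, against medians of 122 before and 119.5 after. The PacBio depth was 2.08 times and the ONT reads 1.72 times their surroundings. Here too the ONT rise was broader than the PacBio block, since the sites at 8416138 and 8411897, just outside it, had 184 and 196 ONT reads with 51 and 53 on PacBio.

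**Figure D3:**
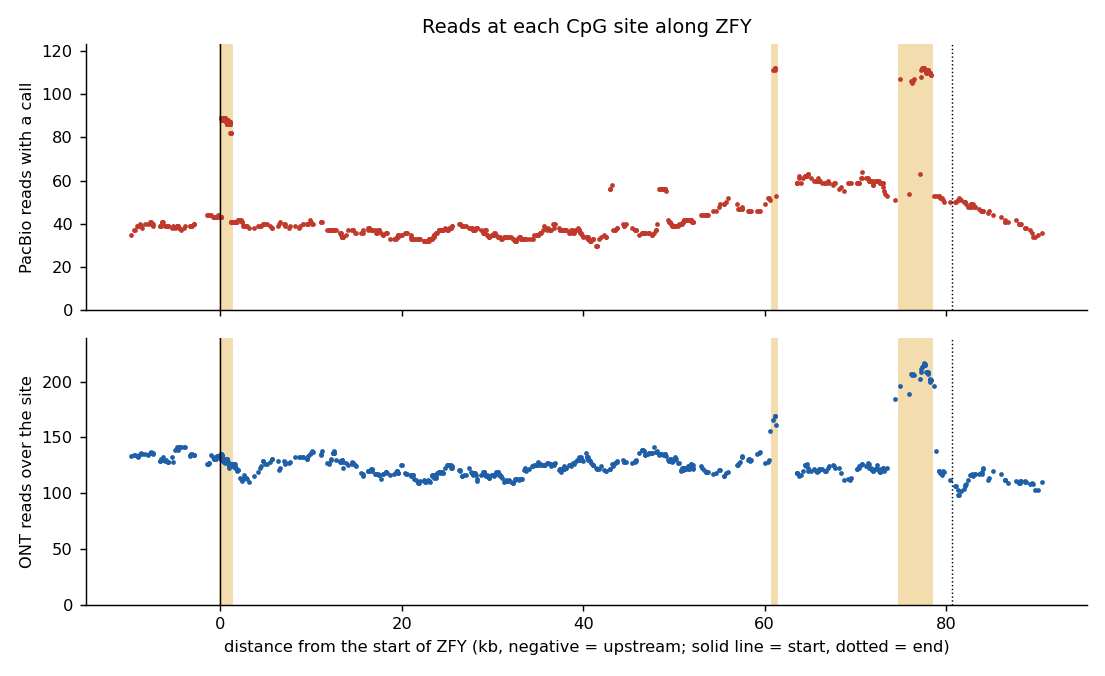
Reads at each CpG site (y axes) by distance in kb from the start of ZFY (x axis), as PacBio reads with a call above and ONT reads over the site below, with the 3 blocks of high PacBio depth shaded. PacBio doubles in all 3 blocks, and ONT reads rise in the second and the third but not in the first, where they stay between 123 and 135.

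PacBio methylation in the third block fell into separate levels. Of its 25 sites of high depth, 16 had 84.5% to 95.1% on PacBio, 2 had 69.3% and 69.7%, and 7 had 49.2% to 58.2%. On ONT the same 7 sites had 52.6% to 61.4%, the 2 had 72.7% and 73.8%, and the 16 had 71.1% to 91.2%, so that of the 25 only the 7 stood apart there. The 7 intermediate sites also differed from most of the others in 2 further measures. The share of ONT reads with no CpG call was 26.9% to 37.8% at them, with a median of 29.9%, against a median of 12.1% at the 16 sites of high methylation and 13.1% at the 561 sites of 80% and over outside the blocks. Their strands were also unequal on ONT, with a median difference of 43.9 points against 7.16 points at the 16 sites. Neither measure separated the sites fully, since the no-call share reached 30.5% and the strand difference 32.6 points among the 16, against minima of 26.9% and 32.5 points among the 7. The plus strand was the higher at 4 of the 7 and the minus strand at 3.

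At 8412486 the plus strand had 87.8% of 41 calls and the minus strand 39.5% of 76 calls, with 53.0% on PacBio. At 8412689 the plus strand had 37.0% of 81 calls and the minus strand 93.3% of 45 calls, with 49.2% on PacBio. In both, the strand with fewer calls carried the high value. Over the 7 sites the median number of calls was 45 on the higher strand and 87 on the lower strand, while at the 16 highly methylated sites it was 78 and 79.5. Intermediate sites were found outside the blocks as well. The 22 body sites under 60% there had a median no-call share of 11.2% and a median strand difference of 9.73 points, and 1 of them differed by over 40 points between the strands.

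A strand difference of over 40 points occurred at 31 of the 826 sites (3.75%), against 1.57% of the sites of the male-specific region, and 5 of the 31 were among the 7 intermediate sites of the third block. At the 2 sites of lower PacBio depth in the third block the no-call share was high as well. The site at 8414575 had 93.0% on PacBio with 54 reads and 78% on ONT, with a no-call share of 39.7%. At 8413444 the platforms were far apart, at 90.8% on PacBio with 63 reads and 56.2% on ONT, with 81.8% on the plus strand, 42.9% on the minus strand and a no-call share of 31.7%. The same held at 8411897, just outside the block, with 94.9% on PacBio with 53 reads and 47.1% on ONT, with 83.8% and 30.5% on the strands and a no-call share of 33.2%. In the second block PacBio gave 93.2% and 89.5% at 2 sites and 35.6% and 47.6% at the other 2. ONT gave 87.3% and 66.4% at the former and 55.8% and 66.1% at the latter, so ONT did not show the same split. The no-call shares at the latter were 17.5% and 20.7%, under those of the 7 sites of the third block.

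**Figure D4:**
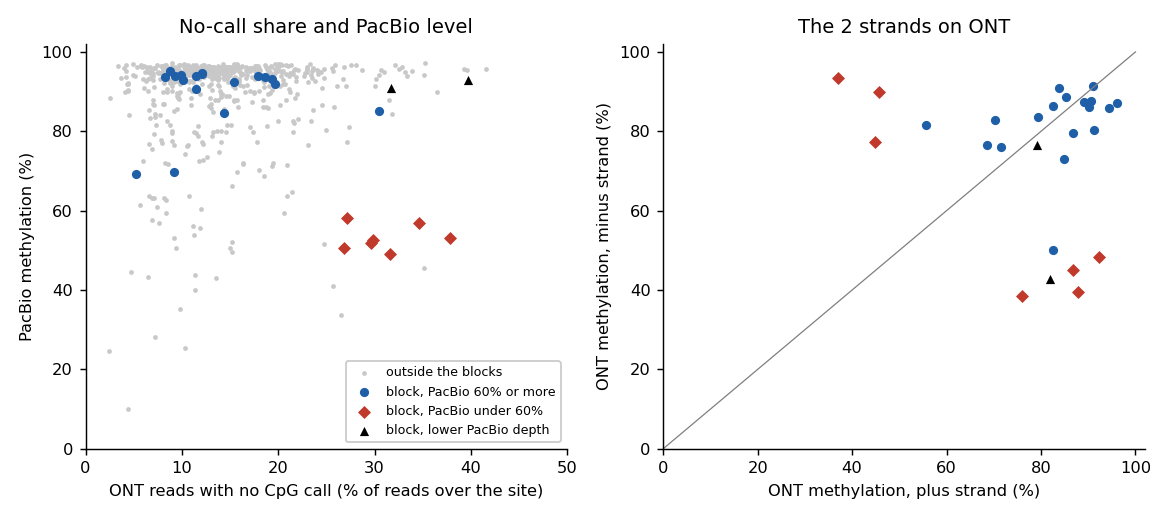
Left, PacBio methylation in percent (y axis) against the share of ONT reads with no CpG call (x axis) for the 27 sites of the third block and, in grey, the body and downstream sites outside the blocks. Right, minus-strand against plus-strand ONT methylation in percent for the same 27 sites, with equal strands on the diagonal. The 7 block sites under 60% on PacBio lie at no-call shares of 26.9% to 37.8% and off the diagonal on both sides.

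Without the second and the third block the body had 89.0% ± 12.3 on PacBio and 76.0% ± 14.3 on ONT over 544 sites. These blocks thus moved the body mean by under 1 point, and the first block lies outside the body. The origin of the additional reads was not tested. Whether the X-chromosome was part of the reference for alignment is not given in the sources used here.

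Smaller departures of depth were found on PacBio alone. From 8447378 to 8447532, 42990 to 43144 bp into the gene, 3 sites had 56 to 58 PacBio reads between neighbours of 34 and 37. ONT reads stayed at 122 to 126 there. From 8441441 to 8442137, 48385 to 49081 bp into the gene, 9 sites had 55 or 56 PacBio reads between neighbours of 40 and 42, with 133 to 135 ONT reads. In the first of these steps PacBio methylation was 72.8% and ONT 87.0%, and ONT was the higher platform at all 3 sites. In the second the values were 81.5% and 85.4%, with ONT higher at 5 of 9 sites. Outside the blocks as a whole, ONT was higher at 7.23% of 692 sites. A slower change came on top of the steps, with a median PacBio depth of 35 from 12000 to 34000 bp, 37 from 34000 to 54000 bp and 60 from 63000 to 74000 bp. Over the same 3 intervals the median ONT reads were 117, 126 and 122, so this PacBio rise had no counterpart on ONT. It did not run on to the end of the gene. The PacBio medians were 51 from 79000 to 82000 bp and 42.5 from 82000 to 91000 bp, with 109 and 111.5 ONT reads.

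ZFY was set beside protein-coding genes of the X-degenerate region, where genes that the Y-chromosome has kept from its common ancestor with the X-chromosome lie. The genes compared are those that the RefSeq table lists as protein-coding and that start in the first 1800 kb of the male-specific region, a set made here that need not hold every gene the study places in that region. There were 12 of them, ZFY included, and 11 held CpG sites in the body. Of the 12 starts, 9 (75.0%) were under 20% on both platforms, ZFY among them. The start of ZFY was the fifth lowest on both platforms. The body of ZFY was the eighth lowest of 11 on PacBio and the sixth lowest on ONT, and its start-to-body difference was the fourth largest on both. Genes of 1 animal are not replicates of a condition, so no test was made of these places.

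The 3 genes whose start and body values were nearest to those of ZFY were KDM6A, ZRSR2Y and USP9X. KDM6A, a histone demethylase gene, had 3.12% at the start and 89.0% in the body on PacBio, and 1.71% and 76.5% on ONT. ZRSR2Y, a splicing factor gene, was at 3.29% and 89.5% by PacBio, and at 1.98% and 79.6% by ONT. USP9X, a deubiquitinase gene, was at 7.48% and 88.2% by PacBio, and at 3.82% and 77.6% by ONT. These genes were picked by the same values, so their nearness to ZFY is no separate result. EIF2S3 had the lowest start, at 2.97% on PacBio and 1.46% on ONT, and the most methylated body, at 91.5% and 79.6%. A second USP9X locus, on the plus strand, had the highest start at 72.3% on PacBio and 68.2% on ONT over 7 sites. LOC132658880 had the least methylated body, at 60.0% and 51.9%.

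In depth ZFY stood apart from the other genes on PacBio. Its median depth at the start was 88 reads and in the body 38, a ratio of 2.32, while the ratio in the other 10 genes with a body ranged from 0.574 in DDX3X, an RNA helicase gene, to 0.905 in AMELY, an enamel protein gene. On ONT the ratio was 1.28 in ZFY and 0.908 to 1.42 in the others, so ZFY lay within their range. The 20 start sites of ZFY outside the first block had a median of 43 PacBio reads. Other genes had sites of high depth too. At least 1.75 times the gene's own body median was reached at 18.4% of the 717 sites of ZFY and its start window, and, counted in the same way, at 0 to 27.3% in the other 10.

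**Figure D5:**
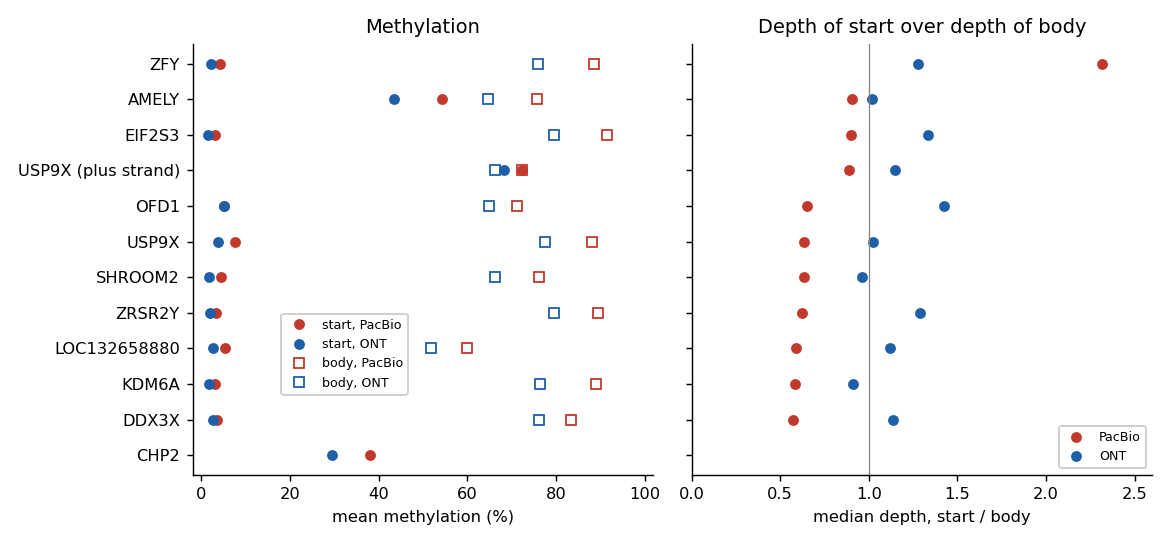
Left, mean methylation in percent of the start (filled circles) and body (open squares) of 12 X-degenerate genes on PacBio (red) and ONT (blue). Right, the median depth of the start divided by that of the body, with equal depth at the line at 1. In the right panel ZFY lies at 2.32 on PacBio and the other genes at 0.574 to 0.905, while on ONT ZFY lies among them at 1.28, and CHP2 has no body site.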

How the data were processed

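CpG methylation was deposited for 2 libraries of 1 animal, both on chromosome Y. For PacBio, the authors estimated methylation per read with Primrose, aligned with pbmm2 and applied the pileup model of pb-CpG-tools, and they deposited a percent methylated and the read counts behind it for each CpG site. For ONT, the authors called bases and methylation with Dorado, aligned with Winnowmap and used modbam2bed, and they deposited counts of methylated calls, unmethylated calls and calls between the thresholds for each strand. The deposited ONT score was used only to check the layout of the columns. How the ONT alignments were filtered is not given in the sources used here.

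Both strands of a CpG were added here for ONT. Sites needed a minimum of 5 calls, which none of them missed. The start covers 500 bp on each side and the body begins 2000 bp past the start. Means over sites were taken on each platform alone, with 95% Wilson intervals for pooled calls. The blocks of high depth are runs of at least 3 sites with PacBio depth of 1.75 times the median or more, joined across 1 site. The lower runs of the body were taken from 3000 bp into the gene, where the mean of 5 neighbouring sites lay at least 20 points under the body mean on both platforms.

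ZFY and the gene lists were chosen with earlier results of these data known. The genes named beside ZFY are the 3 nearest to it by Euclidean distance over start and body on both platforms, and the highest and lowest in the order. Gene symbols and strands come from the study's gene table, matched to RefSeq by position, and X-degenerate genes are those starting in the first 1800 kb of the male-specific region. Values by exon and motifs of the promoter were planned but not made, since no exon map or promoter sequence was used here. Alternatives covered the minimum of calls, pooled or median values, the ONT thresholds, the windows, the limits and the depth reference. The stretch and block rules were tested on simulated data. Python 3.11.15, NumPy 2.4.6 and pandas 2.3.3 were used, and matplotlib 3.10.9 drew the figures.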

Additional observations from a re-analysis of the deposited data

How the results depend on the processing

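Of 98 alternative values, 75 stayed close to the reported one and 23 moved. Close means within the SD between the 2 platforms, for the platform gap within the SD between 5-kb windows, and for counts and lengths within 1.5 times. No methylation difference changed sign, but the depth ratio of the gene fell under 1 against the whole chromosome on both platforms and without the high-depth blocks on PacBio. The start stayed low and the body high under every alternative run. The start moved to 6.81% on PacBio with only the 500 bp upstream, and to 11.3% on ONT with the calls between the thresholds counted as methylated. With those calls as unmethylated, the ONT body was 64.1% and the start minus body difference -62.2 points. With the whole annotated gene as the body, which takes in the low stretch, the body was 72.7% on PacBio and 62.2% on ONT, and the difference -68.5 and -60.1 points. The length of the low stretch ranged from 1666 to 2374 bp. The depth ratio of the gene was 1.31 on PacBio and 1.08 on ONT with mean calls, 0.889 and 0.913 against the whole chromosome, and 1.33 and 1.13 against the first 1800 kb of the male-specific region. Without the high-depth blocks it was 0.974 and 1.01. Low windows numbered 5 at 500 bp and 1 at 2 kb. Low body sites numbered 0 at a limit of 10%, 3 at 30% and 5 on ONT alone. Sites of high depth numbered 0 on ONT reads at 1.75 times their median and 28 at 1.5 times. The settings without the blocks and those for sites of high depth were chosen after seeing the data. The depth behind 1 animal and 1 library per platform limits counting error only, and no spread between animals could be measured. No paired analysis was possible because each platform has a single library and no test was made. Exons and promoter motifs were not run.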
